A study of Mus musculus with 11 samples.

Results

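The junctional adhesion molecules and their close CTX-family relatives were followed in sorted J-RGCs, a type of retinal ganglion cell, from control mice (labelled WT) and Tbr1 knockout mice (labelled Tbr1 KO). The group holds 5 of the 24421 genes counted, taken by symbol: Jam2, Jam3, F11r, Esam and Cxadr. Tbr1 encodes a T-box transcription factor, and the comparison asks how transcripts of this cell type depend on it. All animals were on a mixed C57BL/6 and CD1 background and were taken at postnatal day 4 to 5. In both genotypes the cells carried green fluorescent protein from a J-RGC-specific transgenic line and were sorted into pools of 100 cells. The labels name neither the promoter of that line nor the cells in which Tbr1 was lost.

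Control animals a, c and d gave 1 library each and control animal b gave 2 (libraries 2 and 3). Mutant animals a (libraries 1 and 2) and b (libraries 3 and 4) gave 2 libraries each, and mutant animals c and d gave 1. Counts were summed per animal, which set 4 animals against 4. The 11 libraries held 8609845 to 34718693 reads over genes. All 12 pan-ganglion cell markers, among them Rbpms, Slc17a6 and Pou4f1, were counted in every animal, with a summed level of 18565 to 21796 CPM in controls and 19364 to 21070 in mutants. Nefl was the largest part of that sum, at 3910 to 6764 CPM per animal. Single markers went both ways, 8 with negative and 4 with positive log2 fold changes and none past the threshold (lowest edgeR adjusted p 0.0681). At an unadjusted p under 0.05 by the same edgeR test, 4 were lower and 2 higher, beside 7.09% of all tested genes in either direction. Pou4f2 was at 264 to 295 CPM in controls and 124 to 200 in mutants, and Thy1 at 382 to 458 and 260 to 359. These 2 of the 12 had every mutant below every control, beside 2.48% of all tested genes. Nefl, at 3910 to 5772 CPM in controls and 5552 to 6764 in mutants, lay towards higher levels in mutants, with overlap. Nefm did too, at 611 to 1117 and 904 to 1334 CPM. CPM is the usual depth-scaled count, here with TMM factors applied to each animal's total. Tbr1 was at 155 to 193 CPM in the control animals and 94.2 to 145 in the mutants, with a log2 fold change of -0.50 ± 0.15 (SE). That gene is not past the threshold (edgeR quasi-likelihood test, Benjamini-Hochberg adjusted p = 0.369), and since the deleted part is not given in the labels its level does not check the genotypes. In pools of cells, fewer expressing cells and less RNA per cell cannot be told apart.

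Junctional adhesion molecules are immunoglobulin-superfamily proteins of the cell surface. JAM-A (encoded by F11r), JAM-B (Jam2) and JAM-C (Jam3) bind partners on neighbouring cells, JAM-B and JAM-C preferentially each other, and are known from tight junctions of epithelia and endothelia. ESAM (Esam) is the related adhesion molecule of endothelial cells and platelets, and CAR (Cxadr) is the coxsackievirus and adenovirus receptor, an adhesion protein of epithelia and the developing nervous system. Each ends in a short cytoplasmic motif that binds PDZ-domain scaffolds such as ZO-1, PAR-3 or MAGI proteins. In the retina, JAM-B is the surface protein from which J-RGCs take their name.

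The last 48 coding bases of each gene are shown because they hold that scaffold-binding end, the feature behind the scaffold and polarity list below. They are read 5′ to 3′ from the GENCODE M21 transcripts of the GRCm38 build, and capitals mark the last 3 codons and the stop codon.
Jam2: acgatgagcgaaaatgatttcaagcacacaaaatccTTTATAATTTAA
Jam3: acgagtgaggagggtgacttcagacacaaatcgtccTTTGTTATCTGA
F11r: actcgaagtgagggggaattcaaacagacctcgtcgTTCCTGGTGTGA
Esam: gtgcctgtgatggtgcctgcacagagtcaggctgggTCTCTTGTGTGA
Cxadr: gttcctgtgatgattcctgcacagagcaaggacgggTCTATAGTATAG
These ends fall into the 3 JAM genes and the pair of Esam and Cxadr. Jam2 matched Jam3 at 29 of the 48 bases and F11r at 25, and Jam3 matched F11r at 30. Esam and Cxadr matched at 36, while any JAM gene matched Esam or Cxadr at 10 to 16 bases. The ends of Esam (chr9:37537735-37537782, plus strand) and Cxadr (chr16:78336405-78336452, plus strand) each lie in 1 exon, and those of the 3 JAM genes span an intron. Over whole annotated transcripts, the longest run of bases shared between any 2 of the 5 genes was 17, between Esam and Cxadr.

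Jam2 fell in the Tbr1 mutants. The gene (GRCm38 chromosome 16, 84774123 to 84825928, plus strand) was at 452, 459, 584 and 619 CPM in control animals a to d. In mutant animals a to d it was at 87.4, 120, 130 and 89.7 CPM. The groups lay far apart, with the highest mutant well below the lowest control. The mean went from 528 ± 85.6 to 107 ± 21.5 CPM (SD, n = 4 animals per genotype), which left 20.2% of the control level. The fitted fall was 4.95-fold with a 95% interval of 3.85 to 6.35, a log2 fold change of -2.31 ± 0.17 (SE). By edgeR's quasi-likelihood test the Benjamini-Hochberg adjusted p was 6.41e-05. Permuting the 8 animals exactly, two-sided, gave p = 0.0286 for the log2 level, and no smaller p can be reached with groups of 4. Of 13957 tested genes, 107 had a lower log2 fold change than Jam2, and no gene had a smaller p. Jam2 was still counted in every mutant library, with 17869 counts over the mutant animals.

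The separate pools of 1 animal gave close Jam2 levels. Control animal b had 453 and 478 CPM in its pools. Mutant animal a had 82.3 and 97.6, and mutant animal b had 123 and 115. The difference between genotypes was thus larger than the spread between pools and between animals alike. Per kilobase of exon, Jam2 was at 87.4 ± 14.2 RPKM in controls, which placed it 608th of 13426 tested genes with a length. In mutants it was at 17.7 ± 3.56 RPKM (SD, n = 4), at place 2889.

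**Figure D1:**
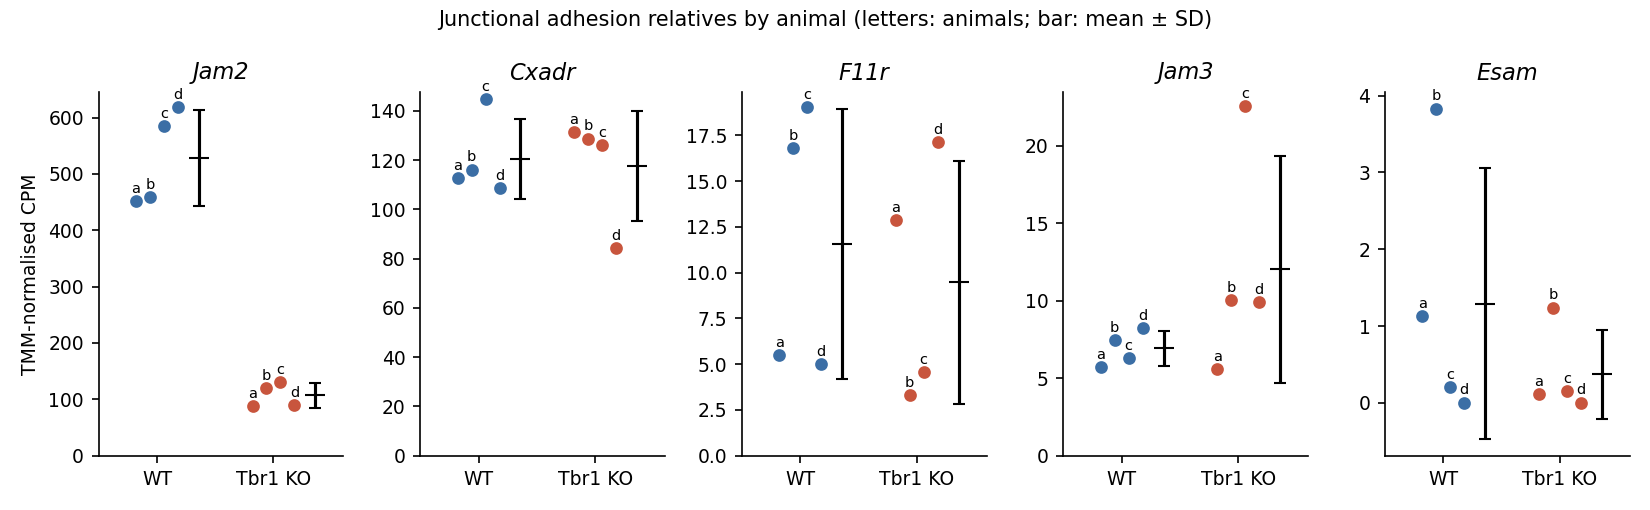
TMM-normalised CPM of Jam2, Cxadr, F11r, Jam3 and Esam in each animal, with the control animals in blue, the mutants in red, animal letters above the points and the mean ± SD (n = 4) in black. The Jam2 groups are separate (452 to 619 against 87.4 to 130 CPM), and those of the other genes overlap.

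Jam2 was the 1 member of the 4 tested that passed the threshold, with 0.287% of all tested genes past it in either direction, 0.201% in the direction of a fall and 0.086% in that of a rise. Jam3, F11r and Cxadr did not pass, and Esam had too few counts to be tested. For all 4 of these genes the animals of the genotypes overlapped. Over all tested genes, 5.06% had genotypes that did not overlap, and 2.48% had every mutant animal below every control animal, as Jam2 did. Jam2 was also the 1 tested member with an unadjusted p under 0.05 in edgeR's test, where 7.09% of all tested genes were, 3.7% of tested genes as falls.

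Jam3 encodes JAM-C, the main binding partner of JAM-B. The gene (chromosome 9, 27097384 to 27155421, minus strand) was at 5.73, 7.46, 6.30 and 8.23 CPM in control animals a to d and at 5.59, 10.03, 22.6 and 9.90 CPM in the mutants. Mutant animal c stood above all others, and mutant animal a lay slightly below every control. Pools of 1 animal differed as well, at 4.15 and 8.32 CPM in mutant animal a and 11.7 and 7.23 in mutant animal b. Control animal b had 7.69 and 6.59 CPM in its pools. The log2 fold change was 0.79 ± 0.44 (SE), with a 95% interval of -0.17 to 1.76 and a Benjamini-Hochberg adjusted p of 0.799 by edgeR's quasi-likelihood test. Without mutant animal c it was 0.30. The summed level of 18 photoreceptor markers was also highest in that animal, at 1561 CPM against 81.1 to 464 in the other 7 animals, and in controls it was highest in animal d, as was Jam3. Of these 18 markers 16 were tested, all 16 with positive log2 fold changes and none past the threshold, and Opn1mw was at 0 throughout. The summed level of 14 Müller glia and progenitor markers, at 354 to 509 CPM in controls and 513 to 812 in mutants, was highest in mutant animal c too. Among controls that sum was highest in animal b, not d, and among mutants it was lowest in animal d, not a. Of these 14 markers 13 had positive log2 fold changes and 2, Dkk3 and Clu, passed the threshold as higher in mutants. Dkk3 (125 to 190 CPM in controls, 240 to 291 in mutants) and Clu (54.1 to 65.6 and 92.3 to 117) were above all controls in every mutant, and Sfrp2 was below them, at 2.60 to 10.8 against 15.3 to 21.4 CPM. The sums of retinal pigment epithelium and horizontal cell markers were highest in mutant animal c as well, at 55.6 and 128 CPM. Most of each came from a single gene, Rlbp1 at 40.9 CPM and Sept4 at 94.2 CPM. The sums of the other marker lists were highest in other animals. The bipolar sum was mostly Isl1, at 627 to 1141 CPM per animal, which is also a pan-ganglion cell marker here. By mean log2 level the bipolar list was highest in mutant animal c, at 1.96. The part of any of these cell types in the Jam3 counts was not tested. With the photoreceptor marker mean as a covariate the Jam3 log2 fold change was 0.15. Mutant animal c was highest in both, no such fit was run with another marker list, and the fit does not test that part. Jam3 shares 1159 exonic bases with Gm48796, an antisense gene not counted in the files.

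**Figure D2:**
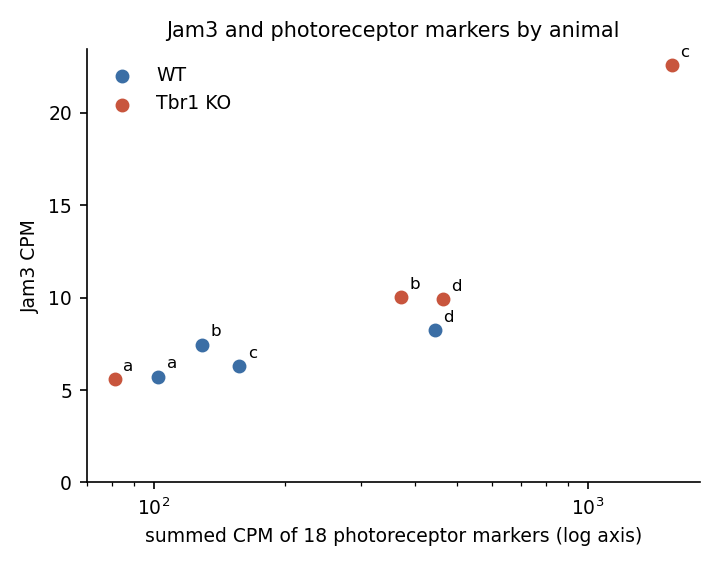
Jam3 CPM against the summed CPM of 18 photoreceptor markers (log axis) in each animal, controls in blue and mutants in red. Mutant animal c is highest on both axes (22.6 and 1561 CPM), and mutant animal a is lowest on both (5.59 and 81.1 CPM).

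F11r encodes JAM-A, the epithelial and endothelial member. The gene (chromosome 1, 171437535 to 171464603, plus strand) was at 5.48, 16.8, 19.1 and 4.99 CPM in control animals a to d and at 12.9, 3.32, 4.56 and 17.1 CPM in the mutants. Each genotype held a pair of high and a pair of low animals. Pools of 1 animal differed as well: control animal b gave 20.01 and 5.44 CPM, a 3.68-fold difference between cells of the same mouse. The log2 fold change between genotypes was -0.29 ± 0.60 (SE), with a 95% interval of -1.60 to 1.01 and a Benjamini-Hochberg adjusted p of 0.981 by edgeR's quasi-likelihood test. That interval takes in a fall of more than 2-fold, no change and a rise of just over 2-fold.

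Esam (chromosome 9, 37528078 to 37538319, plus strand) was close to the limit of counting. Control animals a to d had 28, 148, 7 and 0 counts, and the mutants had 5, 69, 5 and 0. In control animal d and mutant animal d, 0 counts allow a level of up to 0.0942 and 0.0940 CPM, by a limit of 3 counts that covers counting error only. Of the 69 counts in mutant animal b, 68 came from library 4 and 1 from library 3. The gene was removed by the low-count filter, and without a filter its log2 fold change was -1.76 with a Benjamini-Hochberg adjusted p of 0.843 by edgeR's quasi-likelihood test.

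Markers of endothelial cells, in which Esam and F11r are known to be expressed, were scarce in the sorts. Of 12 such markers, Tie1, Emcn, Ly6c1 and Eng had 0 counts in all libraries, Cdh5 was at 0 in the control animals, and 5 passed the low-count filter. Their summed level was 32.6 to 49.1 CPM in controls and 20.5 to 49.1 in mutants, of which Egfl7 gave 12.7 to 30.0 and Kdr 3.19 to 20.2 CPM per animal. Across animals these markers did not share 1 order. Kdr was highest in control animal b and mutant animal b, as Esam was. Among mutants Pecam1, Tek and Cdh5 were also highest in animal b, at 2.58, 6.57 and 0.449 CPM. Among controls Pecam1 was highest in animal a and Tek in animal c. Flt1 was highest in control animal b and mutant animal c. Egfl7 was highest in control animal a and mutant animal a, and Cldn5 in control animal a and mutant animal d. The summed level was highest in control animal a and mutant animal b, at 49.1 CPM in each. Control animal b had the lowest mean log2 level of the list among controls, at -2.99. Of 9 platelet and red blood cell markers, 6 were at 0 throughout. The part of these cells in the Esam and F11r counts was not tested.

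Cxadr was the second most abundant of the 5 genes per length. The gene (chromosome 16, 78301489 to 78359774, plus strand) was at 113, 116, 145 and 109 CPM in control animals a to d and at 131, 129, 126 and 84.1 CPM in the mutants. Both genotypes covered much the same range, with mutant animal d lowest. The log2 fold change was -0.04 ± 0.16 (SE), with a 95% interval of -0.39 to 0.32 and a Benjamini-Hochberg adjusted p of 0.995 by edgeR's quasi-likelihood test. The interval lies wholly outside that of Jam2, -2.67 to -1.95. Its sign depended on the fit: it was -0.01 with library totals in place of TMM and 0.0022 with libraries as replicates. Cxadr shares 695 exonic bases with Btg3, which runs the other way. Whether strand was used in counting is not given, and Btg3 had 0 counts in every library.

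The change of Jam2 relative to its relatives was tested within each animal, where scaling between libraries cancels. In controls there were 3.96 to 5.69 Jam2 counts for each Cxadr count, and in mutants 0.665 to 1.07. The groups did not overlap, and the mean log2 ratio differed by -2.26 (exact two-sided permutation p = 0.0286, n = 4 per genotype). Jam2 counts were 61.6 to 92.7 times those of Jam3 in controls and 5.77 to 15.6 times in mutants, a difference of -2.94 in the mean log2 ratio (exact two-sided permutation p = 0.0286). Against F11r the ratios overlapped, at 27.4 to 124 in controls and 5.24 to 36.2 in mutants, a difference of -1.97 (exact two-sided permutation p = 0.143). These are 3 ratios with unadjusted p, and Esam was left out for its low counts. With 4 against 4 animals 0.0286 is the smallest p of this test, reached by any ratio whose groups do not overlap. By this test the fall of Jam2 thus differed from the change of Cxadr and of Jam3 only at this unadjusted limit. The same test detected no difference from F11r. The fitted edgeR interval of the Jam2 log2 fold change, -2.67 to -1.95, lay wholly below those of these 3 genes. Those were -0.39 to 0.32 for Cxadr, -0.17 to 1.76 for Jam3 and -1.60 to 1.01 for F11r. The intervals were not adjusted for the number of genes.

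**Figure D3:**
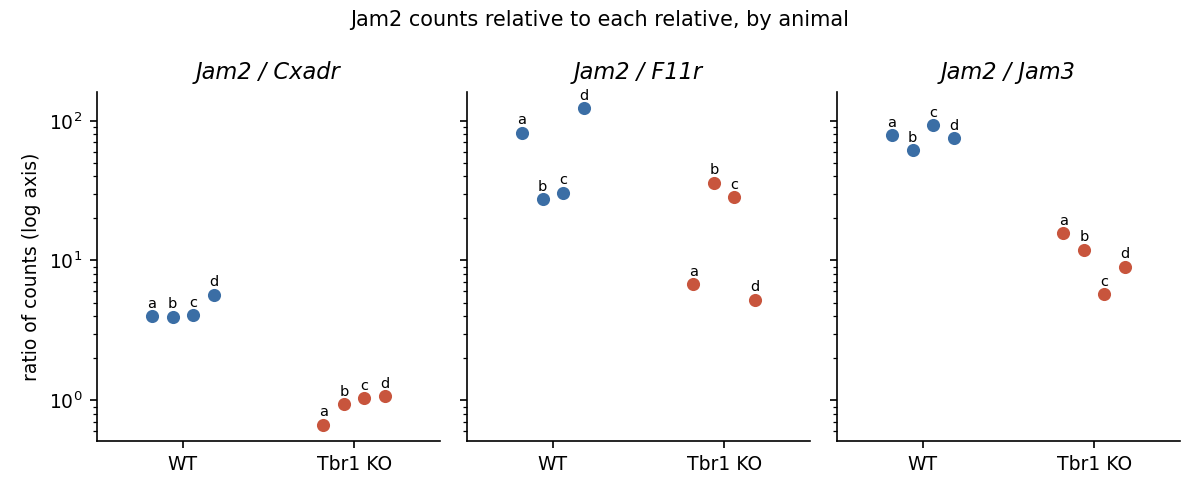
Ratio of Jam2 counts to the counts of Cxadr, F11r and Jam3 in each animal on a shared log axis, controls in blue and mutants in red. The groups are separate for Cxadr (3.96 to 5.69 against 0.665 to 1.07) and Jam3 (61.6 to 92.7 against 5.77 to 15.6) and overlap for F11r.

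By level per length, Jam2 had the highest mean and Esam the lowest in both genotypes, and the ranges of Jam2 and Cxadr were apart in controls and overlapped in mutants. In controls Jam2 was followed by Cxadr at 16.3 ± 2.21 RPKM, F11r at 4.35 ± 2.77, Jam3 at 2.17 ± 0.352 and Esam at 0.450 ± 0.615 (SD, n = 4). The ranges of F11r and Jam3 overlapped, and those of the other neighbours in this order did not. In mutants Jam2 and Cxadr overlapped, at 17.7 ± 3.56 and 15.9 ± 3.03 RPKM, with Jam2 the higher in 3 of 4 animals. Jam3 at 3.76 ± 2.29 and F11r at 3.56 ± 2.49 RPKM overlapped as well, with Jam3 the higher in 2 of 4 animals, and Esam was lowest at 0.131 ± 0.202 (SD, n = 4).

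The summed level of the 5 genes was 111 ± 15.1 RPKM in controls and 41.0 ± 4.98 in mutants (SD, n = 4). Without Jam2 the sum was 23.2 ± 4.73 in controls and 23.3 ± 2.21 in mutants. Jam2 made up 78.9% ± 4.05 of the sum in controls and 42.9% ± 4.43 in mutants (SD, n = 4), and the share of Cxadr went from 14.8% ± 1.85 to 38.7% ± 6.09.

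**Figure D4:**
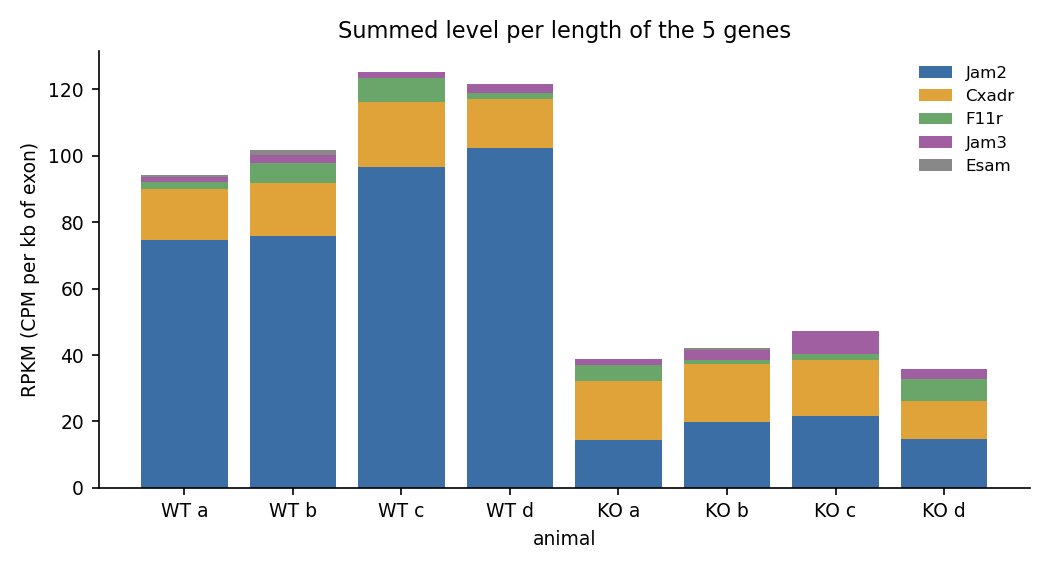
Level per kilobase of exon (RPKM) of the 5 genes, stacked for each animal. The control stacks reach 94.2 to 125 RPKM and the mutant stacks 35.7 to 47.4, and the Jam2 block accounts for the difference in height.

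Genes next to Jam2 on chromosome 16 did not pass the threshold. Atp5j, a subunit of the mitochondrial ATP synthase that lies 1938 bases beyond Jam2 on the opposite strand, had a control mean of 649 ± 209 CPM and a mutant mean of 583 ± 120 (SD, n = 4), a log2 fold change of -0.16 ± 0.21 (SE). Mrpl39, a mitochondrial ribosomal protein gene on the other side, had a log2 fold change of -0.11 ± 0.21 (SE).

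The wider set of CTX relatives and known partners held 87 listed genes, of which 86 were in the files and 62 were tested. Of these 1 fell and 0 rose, by the edgeR quasi-likelihood test at an adjusted p under 0.05, beside 0.287% of all tested genes. At an unadjusted p under 0.05, 3 were lower and 3 higher, beside 7.09% of all tested genes in either direction and 3.7% as falls. The median log2 fold change of the 62 was -0.02, beside -0.00071 over all tested genes. The 1 gene that passed was Magi1.

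Magi1 encodes MAGI-1, a scaffold with several PDZ domains that is known to bind the cytoplasmic ends of CAR and ESAM. The gene (chromosome 6, 93675455 to 94283917, minus strand) was at 213, 263, 217 and 309 CPM in control animals a to d. In mutant animals a to d it was at 112, 115, 144 and 91.6 CPM. All mutants lay below all controls. The mean went from 251 ± 44.9 to 116 ± 21.4 CPM (SD, n = 4), a log2 fold change of -1.12 ± 0.16 (SE) with a Benjamini-Hochberg adjusted p of 0.0114 by edgeR's quasi-likelihood test. The call was lost in 3 of 8 fits that left out 1 animal, with an adjusted p by the same edgeR test of 0.0615 (control b out), 0.0552 (mutant a out) and 0.0703 (mutant b out), and with total count as a covariate (0.0659). The log2 fold change lay between -1.23 and -0.996 over those 8 fits.

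The scaffold and polarity list, all 26 of it tested, gave no call besides Magi1, with 16 negative and 10 positive log2 fold changes. Magi2 and Magi3, the other MAGI genes, had log2 fold changes of 0.26 ± 0.17 and 0.38 ± 0.52 (SE). Cask, a membrane-associated scaffold kinase, was at a control mean of 476 ± 180 CPM and a mutant mean of 366 ± 57.7 (SD, n = 4). Crb3, a polarity protein of the apical membrane, and Pard6g, of the PAR-6 family, had log2 fold changes of -0.76 ± 0.46 and 0.45 ± 0.27 (SE). The JAM scaffolds Tjp1 (ZO-1), Pard3 (PAR-3) and Mllt4 (afadin) gave -0.13 ± 0.42, -0.02 ± 0.32 and 0.08 ± 0.18 (SE).

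The Rap list held 5 Rap GTPases, which act downstream of JAM-A in epithelia, and 3 of their exchange factors. Of these 8 genes none passed the threshold, and 3, all GTPases, had an unadjusted p under 0.05 by the edgeR test. Over all tested genes, 7.09% had such a p and 5.06% had genotypes that did not overlap. Rap1b was at 141, 120, 94.4 and 109 CPM in control animals a to d and at 200, 157, 170 and 170 in the mutants, with every mutant above every control. Its log2 fold change was 0.59 ± 0.14 (SE), with an adjusted p of 0.198 by the edgeR quasi-likelihood test and 0.0196 by DESeq2 (both Benjamini-Hochberg). Rap2a was also higher in every mutant animal, at 10.2 to 18.4 against 5.16 to 9.48 CPM, with a log2 fold change of 0.93 ± 0.37 (SE). Rap2b had one of -0.61 ± 0.20 (SE), with overlapping groups.

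Other CTX-family genes were scarce, and 3 of 8 were tested with no call. Clmp, a CAR-like membrane protein, was the most abundant with a control mean of 58.7 ± 11.8 CPM and a mutant mean of 50.7 ± 8.52 (SD, n = 4), with a 95% interval of -0.63 to 0.21 for its log2 fold change. Vsig8 and Igsf11 were at 1.03 ± 1.08 and 0.907 ± 1.01 CPM in controls and at 3.296 ± 1.10 and 3.01 ± 4.93 in mutants (SD, n = 4). Igsf11 reached 10.4 CPM in its highest mutant animal against 0.188 in the lowest.

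Integrin and tetraspanin partners gave no call among 8 tested. Itga4, the α4 chain of the integrin that binds JAM-B, had a control mean of 1.38 ± 1.23 CPM and a mutant mean of 5.37 ± 5.01 (SD, n = 4), a log2 fold change of 1.96 ± 0.89 (SE) with a Benjamini-Hochberg adjusted p of 0.689 by edgeR's quasi-likelihood test. Its partner chain Itgb1 had a log2 fold change of 0.10 ± 0.22 (SE). The tetraspanins Cd151 and Cd9 gave -0.46 ± 0.24 and 0.78 ± 0.78, and the laminin receptor chain Itga6 gave -0.67 ± 0.52 (SE).

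Among the 5 nectins and nectin-like genes, which join cells beside JAMs, none passed. Pvrl1 had a control mean of 34.8 ± 10.1 CPM and a mutant mean of 44.7 ± 4.97, and Pvr had 20.4 ± 8.66 and 14.2 ± 2.69 (SD, n = 4). Of 27 listed tight junction membrane and plaque genes, 10 were tested and none passed. Ocln, which encodes occludin, was at 3.49 to 22.8 CPM in controls and 0.0940 to 3.297 in mutants, with no overlap, a log2 fold change of -3.17 ± 1.16 (SE) and a Benjamini-Hochberg adjusted p of 0.542 by edgeR's quasi-likelihood test. Of the claudins, Cldn5, known from endothelium, was at 3.46 ± 2.73 CPM (SD, n = 4) in controls and 1.55 ± 1.52 in mutants, and Cldn3 at 0.827 ± 1.24 and 3.295 ± 2.03. The sheddases Adam10 and Adam17, which are known to cleave JAM ectodomains, had log2 fold changes of 0.16 ± 0.20 and -0.55 ± 0.45 (SE).

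**Figure D5:**
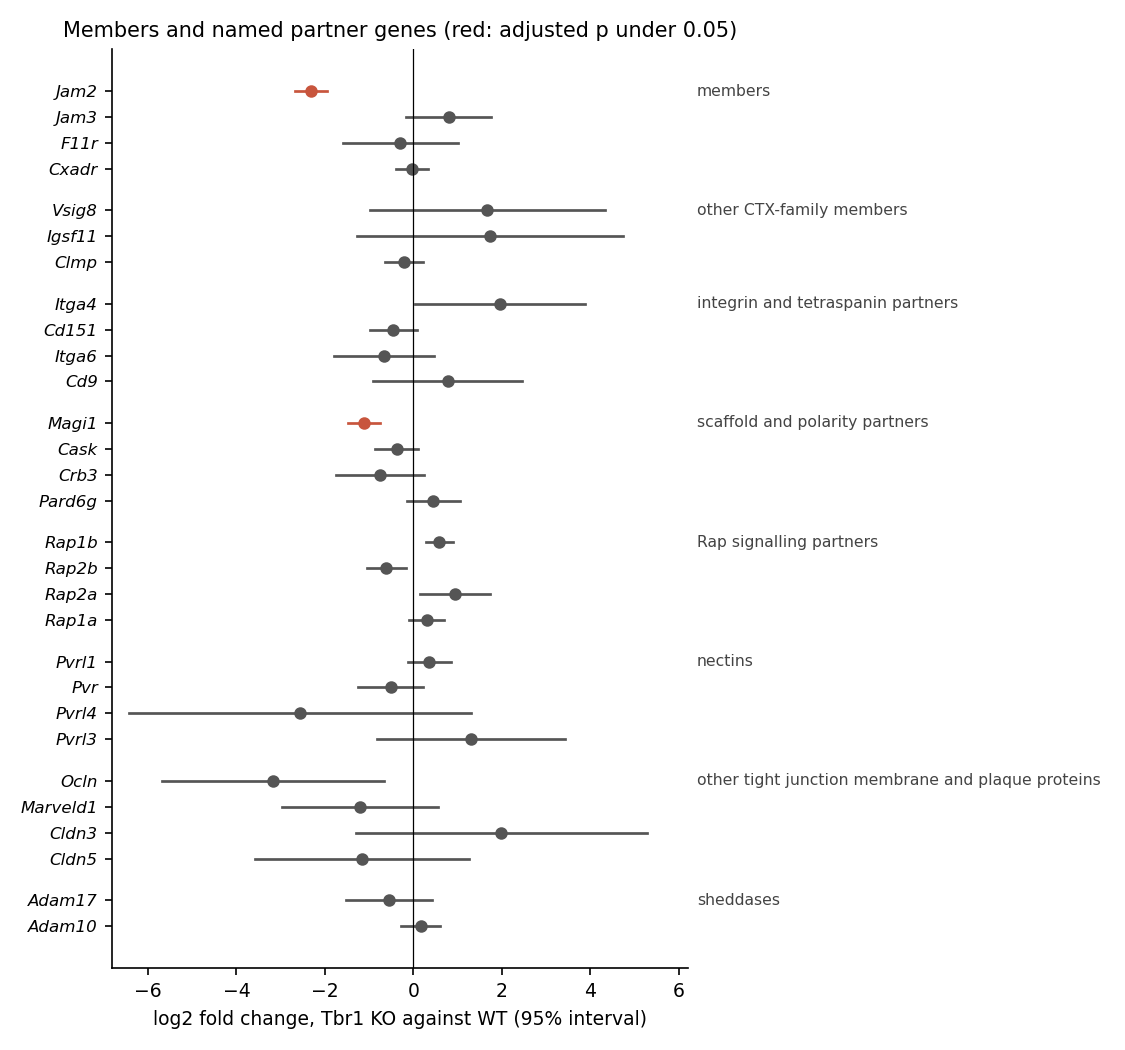
Log2 fold change of Tbr1 KO against WT with its 95% interval for the 4 tested members and up to 4 named genes of each partner list, past-threshold genes in red. Jam2 (-2.31) and Magi1 (-1.12) are the genes in red.

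Genes were ranked by likeness to Jam2, measured as Pearson's r of log2 CPM over the 8 animals among 8031 genes of at least 16 CPM in the higher genotype. Much of this r is the step between genotypes that the genes share. The nearest were Zfp467 (0.97), Cap1 (0.96), Zfp57 (0.96), Nrbf2 (0.96) and Magi1 (0.96). Zfp57, a zinc-finger protein of genomic imprinting, fell from 121 ± 1.58 to 46.6 ± 16.6 CPM (SD, n = 4), a log2 fold change of -1.38 ± 0.21 (SE) with a Benjamini-Hochberg adjusted p of 0.0149 by edgeR's quasi-likelihood test. That call was made in 2 of 8 fits that left out 1 animal, with control a or mutant c left out, with adjusted p of up to 0.0890 in the others, and it was lost with total count as a covariate (0.110). Cap1, an actin-regulating protein, had a log2 fold change of -1.99 ± 0.15 (SE). It passed the threshold, with a Benjamini-Hochberg adjusted p of 6.41e-05 by edgeR's quasi-likelihood test, and kept that call in all fits run. Zfp467 and Nrbf2 had small differences of -0.33 ± 0.18 and -0.40 ± 0.18 (SE) that did not pass, with all mutants below all controls. Over the same animals r with Jam2 was 0.76 for Tbr1, 0.19 for Cxadr, 0.07 for F11r and -0.38 for Jam3.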

How the data were processed

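RNA sequencing libraries of 11 sorted pools were analysed. Each library's deposited table lists unnormalised counts by gene symbol. The submitters' processing notes list HTSeq 0.6.1, TopHat2 2.0.10 and Trimmomatic 0.32 and the mouse build mm10 (GRCm38), without their roles. Neither annotation nor strand setting is given in those sources. Reads in no feature (19.97% to 24.8% of those listed) and the other summary lines did not enter library sizes. Smart-seq2 reads carry no molecular identifiers here, so PCR copies were counted.

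Counts of libraries from 1 animal were summed, filtered with filterByExpr (13957 genes), scaled with TMM and fitted with edgeR 4.0.16 (R 4.3.3; quasi-likelihood, robust), with Benjamini-Hochberg adjustment over all tested genes and a threshold of 0.05. The fit was tested on simulated data. Standard errors are the log2 fold change divided by the square root of F. Log2 CPM and ratios used a prior count of 0.5. RPKM divides CPM by the union of exons in GENCODE M21 (GRCm38). For single values, animals were permuted exactly, two-sided (scipy 1.17.1). No library was left out. Alternatives used DESeq2 1.42.0, limma 3.58.1 and other scalings, filters and units of replication.

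The members and gene lists were chosen with earlier results of these data known. Named genes are the members, Tbr1, list genes past the threshold, up to 4 per list with the smallest p, the 5 genes most like Jam2 and chromosomal neighbours. Tjp1, Pard3, Mllt4, Magi2, Magi3, Itgb1, Pou4f2, Thy1, Dkk3, Clu and Sfrp2 fall outside that rule and were added after their values were seen. The same holds for Nefl, Nefm, Isl1, Rlbp1 and Sept4. Promoter sequences were matched for F11r alone and are not shown.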

Additional observations from a re-analysis of the deposited data

Results flagged for a closer look

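In a group of 4 animals, a value was taken as standing apart when its gap to the nearest animal exceeded 0.829 of the group's range. This held for 12 of 100 groups examined, where chance gives about 1 in 20. All values are log2 CPM unless stated otherwise.

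Among the members, Cxadr was low in mutant animal d at 6.39, against 6.98 to 7.04 in the other mutants. The log2 ratio of Jam2 to Cxadr counts was high in control animal d at 2.51, against 1.98 to 2.01 in the other controls.

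Mutant animal d also stood apart for Clmp (5.99 against 5.49 to 5.57), Itga4 (3.69 against 1.40 to 1.66), Marveld1 (-3.19 against 1.86 to 2.87) and the endothelial marker mean (-3.32 against -2.75 to -2.68). Control animal a was high for Pvrl1 (5.64 against 4.83 to 4.95) and Ocln (4.51 against 1.81 to 2.21). Control animal c was low for Pvrl4 (-4.52 against 1.49 to 1.71) and Adam17 (2.39 against 3.05 to 3.17). Mutant animal c was high for Nrbf2 at 4.96, against 4.85 to 4.87, and control animal d was low for the mean of pericyte and smooth muscle markers at -5.25, against -3.89 to -3.75.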

How the results depend on the processing

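The fall of Jam2 kept its direction and its call in all fits run, with log2 fold changes of -2.41 to -2.22 when 1 animal was left out and -2.51 to -2.24 in 11 other fits. Jam3, F11r and Cxadr passed the threshold in none of them. F11r ran from -0.742 to 0.0573 when 1 animal was left out and was above 0 without control animal c. Cxadr ran from -0.0937 to 0.0952, above 0 without control animal c or mutant animal d, and was 0.0022 with libraries as replicates, 0.0187 with 1 library per animal and 0.0883 with the replicate block. Left-out animals gave Jam2 to Jam3 log2 ratio differences of -3.16 to -2.68 and Jam2 to Cxadr differences of -2.34 to -2.11, each with an exact permutation p of 0.0571, the smallest that 3 against 4 animals allow. With libraries as replicates, which counts pools of 1 animal separately, the Jam2 to F11r difference was -1.93 (exact permutation p = 0.0260).

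The count over all genes, 40, was 156 with DESeq2, 84 with libraries as replicates, 74 with limma voom and 17 with total count as a covariate, and 17 to 44 when 1 animal was left out (18 without control animal b, 22, 17 and 25 without mutant animals a, b and d). The count of pathway genes, 1, was 2 with DESeq2 (Magi1 and Rap1b) and 0 with total count as a covariate, and 0 to 1 with 1 animal left out (0 with control b, mutant a or mutant b left out). The cause was not tested. Library numbers do not pair the genotypes: control libraries 2 and 3 came from 1 animal, while among mutants libraries 1 and 2 did. For this, each library's log2 CPM was taken as its deviation from the mean of its genotype, gene by gene. Over 5 pairs, the deviations of same-numbered libraries had correlations of -0.03 to 0.13. By the same measure, 2 of 5 control libraries correlated best with their own number. A fit with the replicate number as a block, on libraries 1 to 5 of both genotypes, called 42 genes and gave -2.24 for Jam2. That fit counts pools of 1 animal separately. Esam passed the low-count filter in 5 of the fits that left out 1 animal, with log2 fold changes of -2.18 to -1.36 and adjusted p by the edgeR test of 0.888 or more, and without a filter (-1.76). No other fit included it.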
